A study of Mus musculus with 23 samples.

Results

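The genes described here are 52 expressed genes spread along mouse chromosome 15, out of 24475 genes in the table and 905 that lie on that chromosome. They were chosen by name, from Rictor (15, 6708349 to 6800401 on GRCm38.p6) at one end to Espl1 (15, 102296254 to 102324357) at the other. Myc, which lies between them, was left out. The rule asked for expressed genes spread along the chromosome and set no condition on a difference between groups, but earlier results of these data were known when the names were chosen. All 52 members passed the filter on low values, under which 3 or more samples had to reach a scaled RPKM of 1. Of these, 51 reached it in 3 or more thymus samples, and Pvt1 passed only through the tumors. Its change against thymus is therefore described below without a test, and it stays in counts of members unless they are given without it.

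The samples were 6 thymi of normal C57BL/6 mice and 17 spleens of BALB/c Rag2-/-Il2rg-/- hosts, all read by RNA sequencing. The hosts carried T-cell acute lymphoblastic leukemia (T-ALL) that arose from a transplanted thymus. That thymus came from a wild-type donor in 14 hosts (WT T-ALL) and from a Notch3 knockout donor in 3 (Notch3 KO T-ALL). By the study's methods, wild-type donors were newborn mice of the B6.Ly5.1 line, and 1 lobe was placed under the kidney capsule. The knockout allele carries a β-galactosidase insertion in the first coding exon. The hosts keep their own erythroid and myeloid cells, and tissue and host strain part with the groups, so these cannot be told apart from leukemia. Each sample was 1 library. The labels do not say more about separate litters or days, so p-values measure the spread between these samples.

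A cell that gains a whole chromosome carries an extra template of every gene on it, and transcript levels of those genes commonly rise with copy number. Individual genes can depart from that through their own regulation. Gain of chromosome 15, which carries Myc, is a known recurrent event in mouse T-cell leukemia. RNA levels are read here, not DNA copies, and a bulk sample also holds cells without the gain. The study itself read copy number of T-ALL samples by exome sequencing. Its legend puts gain of chromosome 15 down to a trisomy that is frequent in mice. Those copy numbers were not compared, tumor by tumor, with the levels below.

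The level of chromosome 15 was first read without the members. For each sample it is the mean log2 value of 299 other well-expressed genes of the chromosome (Myc left out) minus the mean of 7744 genes of the other autosomes, set to 0 at the thymus mean. On this scale, the ratio of 3 copies to 2 in every cell would give 0.585. The 6 thymus samples lay between -0.073 and 0.036. Of the 14 WT T-ALL, 11 lay above every thymus sample, at 0.490 (T-ALL 3), 0.450 (4), 0.488 (7), 0.340 (14), 0.293 (108), 0.267 (110), 0.446 (111), 0.448 (120), 0.451 (126), 0.490 (128) and 0.361 (202). These values correspond to ratios of 1.2 to 1.4 on the linear scale. The other 3 WT T-ALL lay within the thymus range, at -0.018 (T-ALL 5), -0.062 (36) and -0.062 (48), and no WT T-ALL fell between the lower and the higher values. The 3 Notch3 KO T-ALL had 0.382, 0.366 and 0.248, all above every thymus sample.

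The mean level was 0.313 higher in WT T-ALL than in thymus, with an SD of 0.208 among the 14 tumors and 0.043 among the thymus samples (two-sided exact permutation test, p = 0.00351, adjusted p = 0.0222 over 19 autosomes). In Notch3 KO T-ALL it was 0.332 higher than in thymus (exact permutation test, p = 0.0119, the smallest that 84 splits allow; adjusted p = 0.0377). Chromosome 15 was not alone past the threshold. In WT T-ALL chromosomes 5, 6, 10 and 11 were lower than in thymus, by differences of -0.072 to -0.041. Chromosomes 6 and 11 had smaller p-values than chromosome 15 (exact permutation test, p = 0.00114 and 0.00279, adjusted p = 0.0216 and 0.0222). Each autosome was read relative to all the others, so a raise of chromosome 15 in itself lowers the level of the rest. Chromosome 4 was higher (0.214) and chromosomes 13, 14, 16 and 18 lower in Notch3 KO T-ALL, all at the same smallest p as chromosome 15. The T-ALL groups differed by 0.019 (exact permutation test, p = 0.935, adjusted p = 0.972). This difference took the opposite sign under 3 alternatives. Read over all genes that passed the filter on low values, the level was 0.241 higher in WT T-ALL (exact permutation test, p = 0.00792, adjusted p = 0.0502) and 0.266 higher in Notch3 KO T-ALL (adjusted p = 0.0565), no longer past the threshold after adjustment. Without any 1 of the 3 Notch3 KO T-ALL it remained 0.307 to 0.374 higher than in thymus, with an adjusted p of 0.0679 to 0.0848 (exact permutation test, p = 0.0357, the smallest that 28 splits allow).

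**Figure D1:**
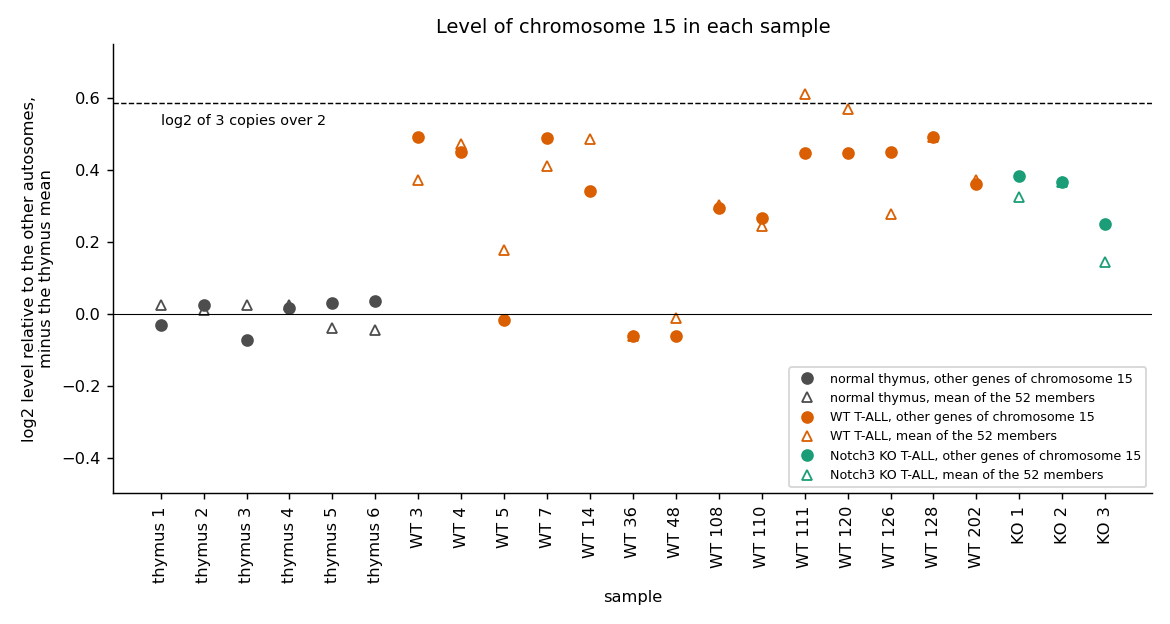
Level of chromosome 15 in each of the 23 samples, relative to the other autosomes and minus the thymus mean (log2, vertical axis). Filled circles are the 299 other genes of the chromosome and open triangles the mean of the 52 members. WT T-ALL 5, 36 and 48 have circles within the range of the thymus samples, while the other 14 tumors lie between 0.248 and 0.490. The dashed line marks 0.585, the log2 ratio of 3 copies to 2.

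A level over 0.2 was reached by chromosome 15 in those 11 WT T-ALL, by chromosome 14 in 3, by chromosomes 4 and 12 in 1 each and by no other autosome. Smaller raises were common, since chromosome 12 was above every thymus sample in 10 WT T-ALL and chromosome 4 in 9. Chromosomes 15 and 14 varied most among the 14 WT T-ALL, with SDs of 0.208 and 0.207, but their medians were 0.404 and 0.048. Chromosome 14 was high in WT T-ALL 7 (0.397), 14 (0.577) and 111 (0.482). Chromosome 15 ranked first of the 19 autosomes in 9 of the 14 WT T-ALL and in Notch3 KO T-ALL 1 and 3. In Notch3 KO T-ALL 2, chromosomes 4 (0.470) and 12 (0.388) were higher than chromosome 15 (0.366).

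**Figure D2:**
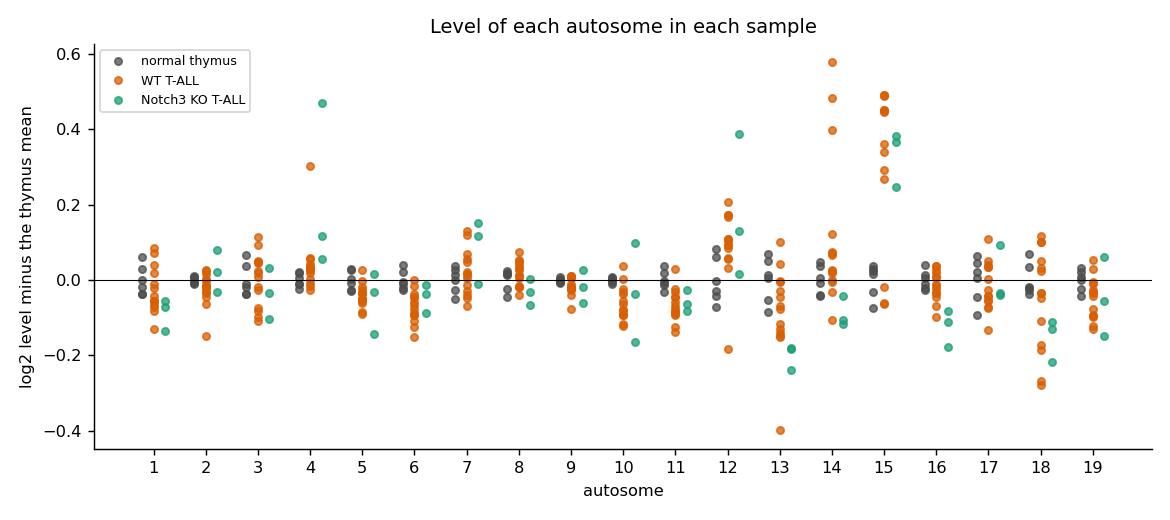
Level of each autosome in each sample (log2, minus the thymus mean), with 1 point per sample and groups side by side. Chromosome 15 holds the widest block of raised tumors, chromosome 14 has 3 raised WT T-ALL, and the single high points on chromosomes 4 and 12 of the Notch3 KO group belong to T-ALL 2.

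The members, which had no part in that level, were read next in each tumor. Relative to the other autosomes, their mean was between -0.044 and 0.025 in the thymus samples. It was lowest in WT T-ALL 36 (-0.062) and 48 (-0.012), followed by T-ALL 5 (0.177), and lay between 0.245 (T-ALL 110) and 0.610 (T-ALL 111) in the other 11. Among WT T-ALL the 3 with the lowest chromosome level thus also had the lowest means of the members, although T-ALL 5 lay above every thymus sample for the members and not for the other genes. The 3 Notch3 KO T-ALL had 0.324, 0.365 and 0.145, so the mean of T-ALL 3 was under that of WT T-ALL 5 while its chromosome level was higher (0.248 against -0.018).

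The raise was next read along the chromosome. Split into 5 segments of 18 to 148 genes each, the other genes of chromosome 15 were summarised by the median over genes in each sample, which had medians over WT T-ALL of 0.434, 0.464, 0.496, 0.317 and 0.416 from the first segment to the last. In Notch3 KO T-ALL the medians were 0.297, 0.441, 0.416, 0.272 and 0.377. In 10 of the 11 raised WT T-ALL and in all Notch3 KO T-ALL, each segment was above every thymus sample by this measure. The exception was the first segment of WT T-ALL 126, at -0.060 with thymus samples at -0.124 to 0.102, although the chromosome level of that tumor was 0.451. By the mean over genes, the first segment of T-ALL 126 (-0.147) was below every thymus sample, and the first segment of Notch3 KO T-ALL 2 (0.135) and the second of WT T-ALL 7 (0.110) lay within the thymus samples. In the 3 low tumors the last 2 segments were within or under thymus by both measures. By the median, the first was above every thymus sample in T-ALL 5 (0.184) and 36 (0.188), the second in T-ALL 36 (0.211) and the third, of 18 genes, in all 3 (0.190, 0.235 and 0.201 in T-ALL 5, 36 and 48, highest thymus sample 0.172). By the mean, the third segment of T-ALL 5 (0.143) was within thymus, and so was the first of T-ALL 36 (0.001). The second of T-ALL 48 (0.176) was above every thymus sample by the mean (highest 0.157). Genes of the 5 segments had a mean GC content of 44.3, 46.7, 45.3, 54.6 and 52.7%, from the first to the last. After GC content and length correction, the chromosome levels of T-ALL 5, 36 and 48 were -0.018, -0.004 and 0.012. The part of GC content in the segment pattern was not tested.

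**Figure D3:**
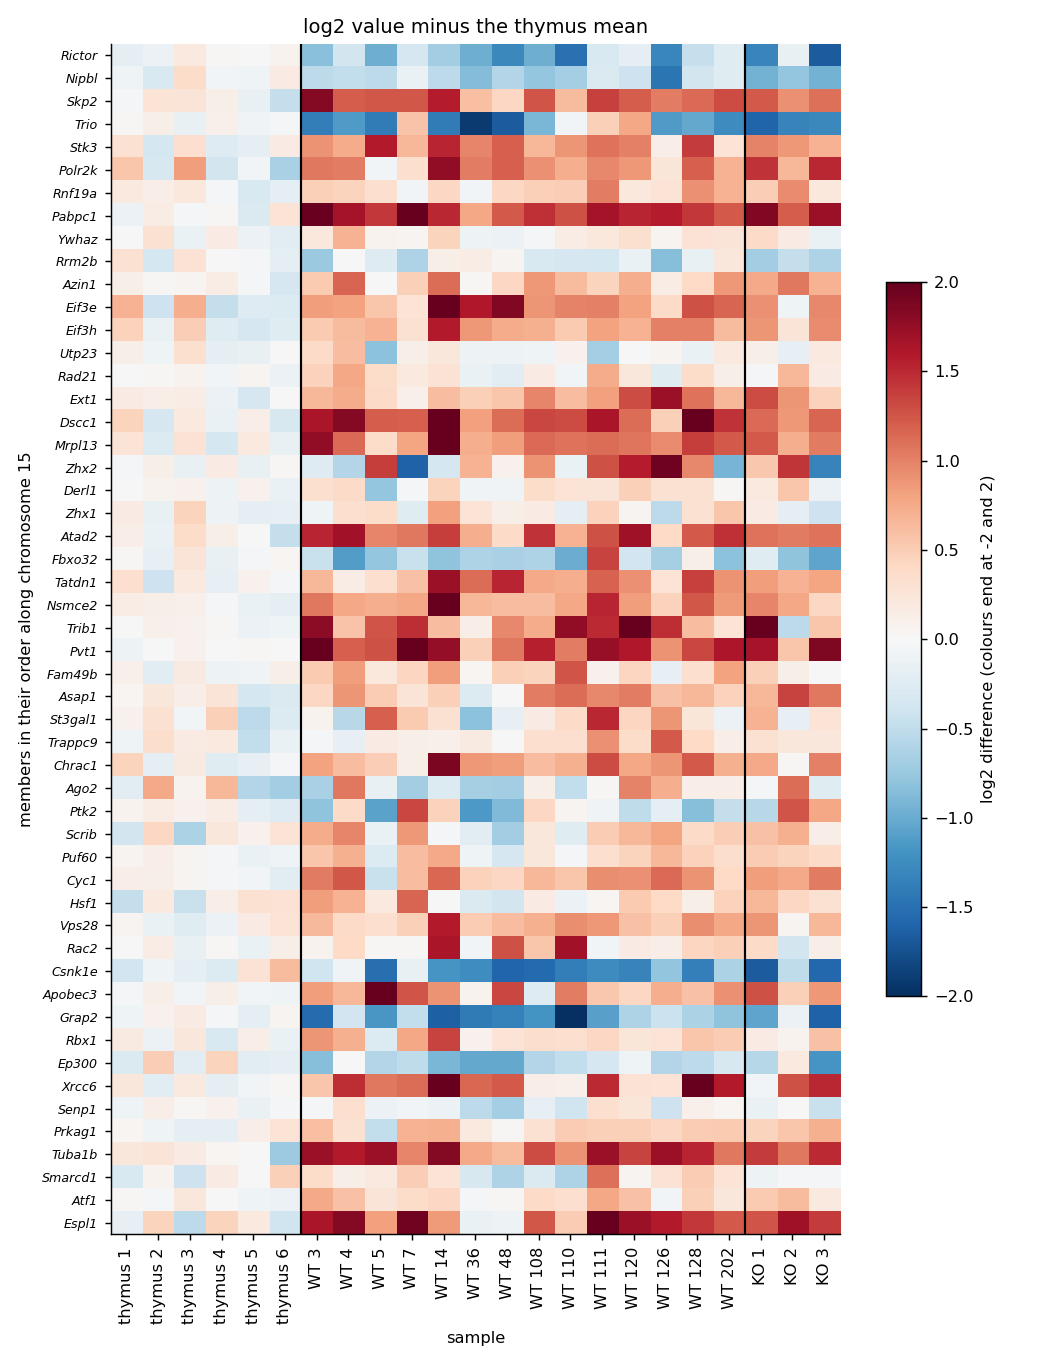
The 52 members in their order along the chromosome (rows) in each sample (columns), as log2 value minus the thymus mean of that gene. Raised members occur from one end to the other, Espl1 in the bottom row is near its thymus mean in WT T-ALL 36 and 48, and Rictor, Nipbl, Csnk1e, Grap2 and Ep300 are blue in most tumors.

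Against thymus, 28 of the 52 members rose in WT T-ALL, 6 fell and 18 were not called (limma, adjusted p under 0.05). Over all 11919 genes tested, 29.3% were called higher and 22.3% lower, so the 28 members (53.8%) stood above that background and the 6 (11.5%) below it. The median change of the members was 0.449, against 0.078 over all genes and 0.387 over the 419 other genes of chromosome 15. Of those other genes 43.4% rose and 12.6% fell. In Notch3 KO T-ALL, 21 members rose, 6 fell and 25 were not called, with 21.2% of all genes called higher and 16.3% lower. The members' median change there was 0.484, against 0.077 over all genes. Both comparisons share the thymus samples. Without Pvt1, 27 of 51 members (52.9%) rose in WT T-ALL and 20 (39.2%) in Notch3 KO T-ALL, with medians of 0.433 and 0.477. With the erythroid marker score as a covariate, 2 members (3.85%) were called in WT T-ALL and 0 in Notch3 KO T-ALL, against 3.44% and 0.319% of all genes. That score does not overlap between thymus and the spleens, so it cannot be told apart from the group. Within the smaller of the 2 sets of libraries described at the end, 9 members were called in WT T-ALL (17.3%, all genes 15.2%) and 14 in Notch3 KO T-ALL (26.9%, all genes 25.1%). Without Notch3 KO T-ALL 1 the count of 27 members became 15 (28.8%, all genes 27.6%). Under quantile normalization 20 were called in Notch3 KO T-ALL (38.5%, all genes 37.6%). In both directions together the members were thus near the background in these settings. Their median change within that set was 0.515 in WT T-ALL and 0.620 in Notch3 KO T-ALL, against 0.108 and 0.086 over all genes. Among the calls, 9 were higher in WT T-ALL within that set (17.3%, all genes 8.84%), 12 in Notch3 KO T-ALL within it (23.1%, all genes 15.3%), 14 without Notch3 KO T-ALL 1 (26.9%, all genes 15.4%) and 14 under quantile normalization (26.9%, all genes 17.5%).

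In 10 members (19.2%) all 14 WT T-ALL lay above all thymus samples, which was so for 8.42% of all genes. In 2 members, Rictor and Grap2, all lay below, against 6.64% of all genes. For the 3 Notch3 KO T-ALL, 20 members lay above all thymus samples (38.5%, all genes 23.9%) and 5 below (9.6%, all genes 18.4%). Pvt1 is among the 10 and the 20 members, which become 9 and 19 of 51 without it.

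**Figure D4:**
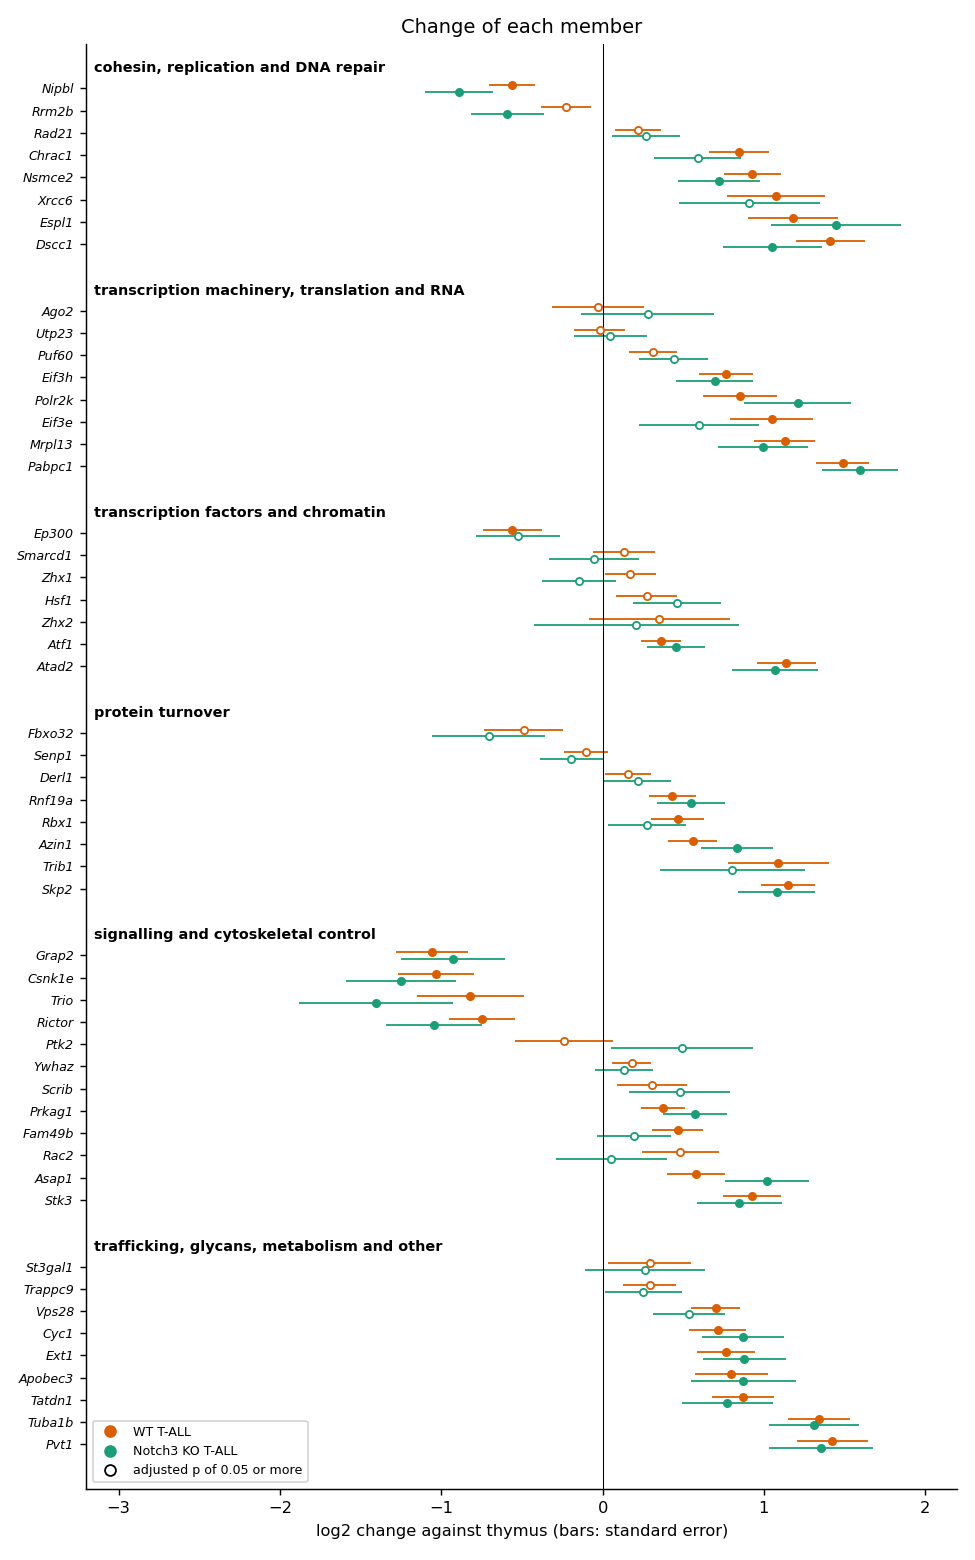
Change of each member against thymus on the log2 scale, by role, with the standard error as a bar. Orange is WT T-ALL (n = 14) and green Notch3 KO T-ALL (n = 3); filled points had an adjusted p under 0.05. Filled points to the left of 0 in WT T-ALL belong to 6 members, of which 4 are in the signalling group. Pvt1 is drawn too, although it passed the filter only through the tumors.

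Cohesin, which holds sister chromatids together, and genes of replication and DNA repair made up 8 members. In WT T-ALL 5 of them rose (62.5%, all genes 29.3%), 1 fell (12.5%, all genes 22.3%) and 2 were not called. Dscc1, which helps load the replication clamp and establish cohesion, had 3.02, 2.23, 2.77, 2.44, 2.70 and 2.25 in thymus samples 1 to 6 (log2 value, as all levels below). In WT T-ALL it ran from 3.04 through a median of 3.89 to 5.18, and in Notch3 KO T-ALL it was 3.70, 3.43 and 3.74, so every tumor was above every thymus sample. It rose by 1.41 (SE 0.213, adjusted p = 1.08e-05) and 1.05 (SE 0.308, adjusted p = 0.00984).

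Espl1 is separase, the protease that cuts cohesin at anaphase. It was between 2.44 and 3.40 in thymus and ran from 2.83 through 4.29 to 4.99 in WT T-ALL, where only T-ALL 36 (2.83) and 48 (2.86) overlapped with thymus. In Notch3 KO T-ALL it was 4.21, 4.65 and 4.36. It rose by 1.18 (SE 0.279, adjusted p = 0.00126) and 1.45 (SE 0.405, adjusted p = 0.00722).

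Nipbl, which loads cohesin onto chromatin, went the other way. It was between 5.77 and 6.43 in thymus. WT T-ALL ran from 4.61 through 5.54 to 5.93, with 11 of 14 below every thymus sample, and Notch3 KO T-ALL had 5.12, 5.29 and 5.13. It fell by 0.56 in WT T-ALL (SE 0.145, adjusted p = 0.00257) and by 0.89 in Notch3 KO T-ALL (SE 0.210, adjusted p = 0.00204). Rrm2b, a ribonucleotide reductase subunit under p53 control, was -0.23 against thymus in WT T-ALL (adjusted p = 0.228) and fell by 0.59 in Notch3 KO T-ALL (adjusted p = 0.0426), where all 3 tumors were below all thymus samples.

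Of the 8 members of the transcription machinery, translation and RNA group, 5 rose in WT T-ALL (62.5%, all genes 29.3%). None fell (all genes 22.3%) and 3 were not called. Pabpc1, the cytoplasmic poly(A)-binding protein, had the largest change of all members on this log2 scale. By the ratio of mean scaled RPKM in WT T-ALL to thymus, Pvt1 (7.43, from 0.398 in thymus) and Dscc1 (3.14) were ahead of Pabpc1 (2.86). Pabpc1 was 8.72, 8.99, 8.79, 8.87, 8.55 and 9.12 in thymus samples 1 to 6. WT T-ALL ran from 9.61 (T-ALL 36) through 10.32 to 11.0 (T-ALL 7), and Notch3 KO T-ALL had 10.69, 10.05 and 10.57. The groups of tumors did not overlap with thymus, and Pabpc1 rose by 1.49 (SE 0.162, adjusted p = 1.5e-07) and 1.60 (SE 0.235, adjusted p = 2.09e-05).

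Mrpl13, a mitochondrial ribosomal protein, rose by 1.13 in WT T-ALL (adjusted p = 4.38e-05) and by 0.99 in Notch3 KO T-ALL (adjusted p = 0.00708). All 17 tumors were above the highest thymus sample, which had 5.78. Ago2, the slicer of RNA interference, was -0.03 (adjusted p = 0.938) and 0.28 (adjusted p = 0.616) against thymus. Utp23, a factor of ribosomal RNA processing, was -0.02 (adjusted p = 0.938) and 0.05 (adjusted p = 0.884). For both genes, tumors lay on either side of the thymus samples or among them. In the GENCODE annotation, 11.5% of the exon bases of Utp23 lie opposite exons of another gene, and without stranded counting the reads of both cannot be told apart.

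Among 7 transcription factors and chromatin proteins, 2 rose in WT T-ALL (28.6%, all genes 29.3%), 1 fell (14.3%, all genes 22.3%) and 4 were not called, so the share that rose was that of the background. Atad2, a bromodomain ATPase tied to proliferation, was at most 5.43 in thymus. It ran from just above that value (T-ALL 48) through 6.31 to 6.74 in WT T-ALL and was 6.14, 6.10 and 6.13 in Notch3 KO T-ALL. It rose by 1.14 (SE 0.184, adjusted p = 2.52e-05) and 1.07 (SE 0.267, adjusted p = 0.00323).

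Atf1, a CREB-family activator, rose by 0.36 (adjusted p = 0.0172) and 0.45 (adjusted p = 0.0488). Ep300, the p300 acetyltransferase, fell by 0.56 in WT T-ALL (adjusted p = 0.013), where 12 of 14 tumors were below every thymus sample. It was -0.52 in Notch3 KO T-ALL (adjusted p = 0.12), with 4.02, 4.78 and 3.41. Smarcd1, a subunit of the SWI/SNF remodeller, was 0.13 (adjusted p = 0.589) and -0.06 (adjusted p = 0.894), with 12.7% of its exon bases opposite exons of other genes.

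Of 8 members of protein turnover, 5 rose in WT T-ALL (62.5%, all genes 29.3%), none fell (all genes 22.3%) and 3 were not called. Skp2, the F-box protein that targets p27 for degradation, was between 3.17 and 3.93 in thymus and between 4.08 (T-ALL 48) and 5.50 (T-ALL 3) in WT T-ALL, with a median of 4.88. Notch3 KO T-ALL had 4.87, 4.57 and 4.76. No tumor overlapped with thymus, and Skp2 rose by 1.15 (SE 0.165, adjusted p = 6e-06) and 1.08 (SE 0.239, adjusted p = 0.0012).

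Trib1, a pseudokinase that recruits the COP1 ligase, rose by 1.09 in WT T-ALL (adjusted p = 0.00559), with 2.15 to 2.36 in thymus and 2.40 to 4.36 in the tumors. In Notch3 KO T-ALL it had 4.65, 1.74 and 2.81, on both sides of thymus, and was not called (0.80, adjusted p = 0.163). Fbxo32, the F-box protein atrogin-1, was -0.49 in WT T-ALL (adjusted p = 0.094), where 12 tumors were below every thymus sample and T-ALL 111 (3.90) was above. It was -0.71 in Notch3 KO T-ALL (adjusted p = 0.118). Senp1, which removes SUMO, was -0.10 (adjusted p = 0.536) and -0.19 (adjusted p = 0.451).

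Of the 12 members of signalling and cytoskeletal control, 4 rose in WT T-ALL (33.3%, all genes 29.3%), 4 fell (33.3%, all genes 22.3%) and 4 were not called, which is near the background for those that rose. The 4 that fell were also called lower in Notch3 KO T-ALL. Grap2, the Gads adaptor of T-cell receptor signalling, had 6.54, 6.71, 6.79, 6.60, 6.44 and 6.68 in thymus samples 1 to 6. WT T-ALL ran from 4.60 (T-ALL 110) through 5.50 to 6.25 (T-ALL 4), all below thymus, and Notch3 KO T-ALL had 5.57, 6.52 and 5.02. It fell by 1.06 (SE 0.222, adjusted p = 0.000436) and 0.93 (SE 0.322, adjusted p = 0.0266).

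Csnk1e, a casein kinase of Wnt and clock signalling, fell by 1.03 (SE 0.234, adjusted p = 0.000876) and 1.25 (SE 0.340, adjusted p = 0.00597). Its level also differed by 0.70 between the 2 sets of libraries (adjusted p = 0.0274). Rictor, the defining subunit of mTORC2, was between 4.56 and 4.94 in thymus and between 3.24 and 4.54 in WT T-ALL. It fell by 0.75 (adjusted p = 0.00414) and 1.04 (adjusted p = 0.008), and 1 Notch3 KO T-ALL (4.59) was within the thymus range. Trio, a guanine nucleotide exchange factor, was near 2 in all thymus samples (1.90 to 2.16) and ran from 0.15 to 2.84 in WT T-ALL, where 10 tumors were below and 3 above. It fell by 0.82 (adjusted p = 0.0405) and 1.41 (adjusted p = 0.0234).

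Stk3, the Hippo kinase MST2, rose by 0.93 (adjusted p = 0.000197) and 0.85 (adjusted p = 0.0136). Asap1, an Arf GTPase-activating protein, rose by 0.58 (adjusted p = 0.00948) and 1.02 (adjusted p = 0.00365). Scrib, a cell polarity scaffold, was 0.31 (adjusted p = 0.239) and 0.48 (adjusted p = 0.238), and Ptk2, the focal adhesion kinase, was -0.24 (adjusted p = 0.524) and 0.49 (adjusted p = 0.395). Neither was called, and their levels in the tumors spread to both sides of thymus.

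Of the 9 members of trafficking, glycans, metabolism and other roles, 7 rose in WT T-ALL (77.8%, all genes 29.3%) and 2 were not called. Pvt1 is counted among the 7, although it had to be higher in tumors to pass the filter. Tuba1b, an α-tubulin, was between 8.16 and 9.15 in thymus. It ran from 9.52 (T-ALL 48) through 10.32 to 10.71 (T-ALL 14) in WT T-ALL and was 10.28, 9.93 and 10.37 in Notch3 KO T-ALL, so that the groups did not overlap. It rose by 1.34 (SE 0.191, adjusted p = 5.4e-06) and 1.31 (SE 0.277, adjusted p = 0.000801). How reads shared with near-identical α-tubulin genes were assigned is not given in the sources used here. Apobec3, an antiviral cytidine deaminase, rose by 0.80 (adjusted p = 0.0053) and 0.87 (adjusted p = 0.0385). St3gal1, a sialyltransferase, was 0.29 (adjusted p = 0.347) and 0.26 (adjusted p = 0.598), and Trappc9, a subunit of a vesicle tethering complex, was 0.29 (adjusted p = 0.141) and 0.25 (adjusted p = 0.423).

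Pvt1 (15, 62037986 to 62260215) is a noncoding RNA gene that lies directly beyond Myc (15, 61985341 to 61990361). It was 0.38, 0.48, 0.57, 0.49, 0.50 and 0.48 in thymus samples 1 to 6. WT T-ALL ran from 0.96 (T-ALL 36) through 1.92 to 2.85 (T-ALL 7), and Notch3 KO T-ALL had 2.13, 1.03 and 2.35. The mean scaled RPKM was 0.398 in thymus, 2.96 in WT T-ALL and 2.84 in Notch3 KO T-ALL. No tumor overlapped with thymus, but no thymus sample reached the filter value. A gene kept on these terms had to be higher in tumors, so no test against thymus is given. Myc itself was between 4.63 and 5.64 in thymus, between 6.14 and 7.59 in WT T-ALL and at 7.66, 6.50 and 7.09 in Notch3 KO T-ALL. It rose by 1.87 (SE 0.206, adjusted p = 1.6e-07) and 2.08 (SE 0.298, adjusted p = 1.53e-05), and the 3 WT T-ALL with a low chromosome level lay above thymus like the rest.

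Between the T-ALL groups, none of the 52 members was called (limma, adjusted p under 0.05; background 0.617%), and none had an unadjusted p under 0.05. Over all 11677 genes tested 72 were called. The members' differences, Notch3 KO minus WT, ran from -0.59 for Trio to 0.73 for Ptk2. Notch3 itself, at 3.22, 2.59 and 3.74 in Notch3 KO T-ALL, was within the thymus range or just under it (2.62 to 4.29) and between 3.17 and 5.78 in WT T-ALL. The table holds 1 value for the whole gene and none for the exon with the insertion, so the level does not check the genotype.

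Which members followed the chromosome from tumor to tumor was read as the slope of each gene's log2 value on the chromosome 15 level over the 14 WT T-ALL, where a slope of 1 is an equal change. The members had a median slope of 0.836 and 43 of 52 were positive. The 10628 genes of the other autosomes had a median of 0.012 with 50.7% positive. The other genes of chromosome 15 had a median of 1.03, which follows from their being part of the level. With adjustment over 11178 genes, 2 members had a positive slope (limma, background 0.0537%). At an unadjusted p under 0.05 there were 21 positive and 0 negative (background for positive 5.39%).

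The 2 called were Espl1, with a slope of 3.01 (SE 0.449, adjusted p = 0.0122), and Scrib, with 2.07 (SE 0.385, adjusted p = 0.0423). Espl1 was 2.83, 2.86 and 3.78 in T-ALL 36, 48 and 5, and 3.45 (T-ALL 110) to 4.99 (T-ALL 111) in the other 11. Scrib was 3.80, 3.32 and 3.88 in T-ALL 36, 48 and 5, and 3.76 to 4.98 in the others, so its values overlapped. Relative to the other autosomes Scrib was not called (adjusted p = 0.0519) and Puf60, a splicing factor, was (slope 1.63, adjusted p = 0.0315). The steepest members after Espl1 also included Trio (2.24, adjusted p = 0.342) and Ptk2 (1.74, adjusted p = 0.379). These spread widely at the same chromosome level, with Trio at 0.66 in T-ALL 3 and 2.62 in T-ALL 7.

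The lowest slopes were those of Eif3e, a translation initiation factor subunit (-1.05, adjusted p = 0.498), Apobec3 (-0.76, adjusted p = 0.671), Stk3 (-0.73, adjusted p = 0.566) and Rrm2b (-0.72, adjusted p = 0.508). None was called. Eif3e, Apobec3 and Stk3 rose against thymus in WT T-ALL all the same, Eif3e by 1.05 (SE 0.257, adjusted p = 0.00173). Pvt1 had a slope of 1.42 (adjusted p = 0.304) and Myc one of 0.28 (SE 0.548, adjusted p = 0.852).

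The 14 levels fall into 2 clusters, and the calls rest largely on T-ALL 36 and 48 of the low tumors. Without T-ALL 5 alone, 2 members were still called and 20 were positive at an unadjusted p under 0.05 (38.5%, other autosomes 6.85%). Without T-ALL 36 alone the 21 positive members at an unadjusted p under 0.05 became 11 (21.2%, other autosomes 3.74%), and without T-ALL 48 alone 10 (19.2%, other autosomes 3.02%). Without T-ALL 36 and 48, the 2 farthest from the median, no member was called, and 6 had a positive slope (11.5%) and 1, Apobec3, a negative one at an unadjusted p under 0.05. Of the genes of the other autosomes 3.20% were positive and 2.34% negative at that p. The slopes of both called genes stayed positive, at 2.12 for Scrib (SE 0.621, adjusted p = 0.689) and 2.40 for Espl1 (SE 0.720, adjusted p = 0.717), with larger errors than over the 14. The median slope was then 0.573. Within the 11 tumors above every thymus sample, no member was called by limma, and the median was 0.639. At an unadjusted p under 0.05, 5 were positive (9.62%) and 1 negative (1.92%), near the 7.01% positive on the other autosomes, where 9.52% were negative. Espl1 had a slope of 4.78 among those 11 (SE 1.16, adjusted p = 0.0909) and Scrib one of 3.82 (SE 1.06, adjusted p = 0.113).

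**Figure D5:**
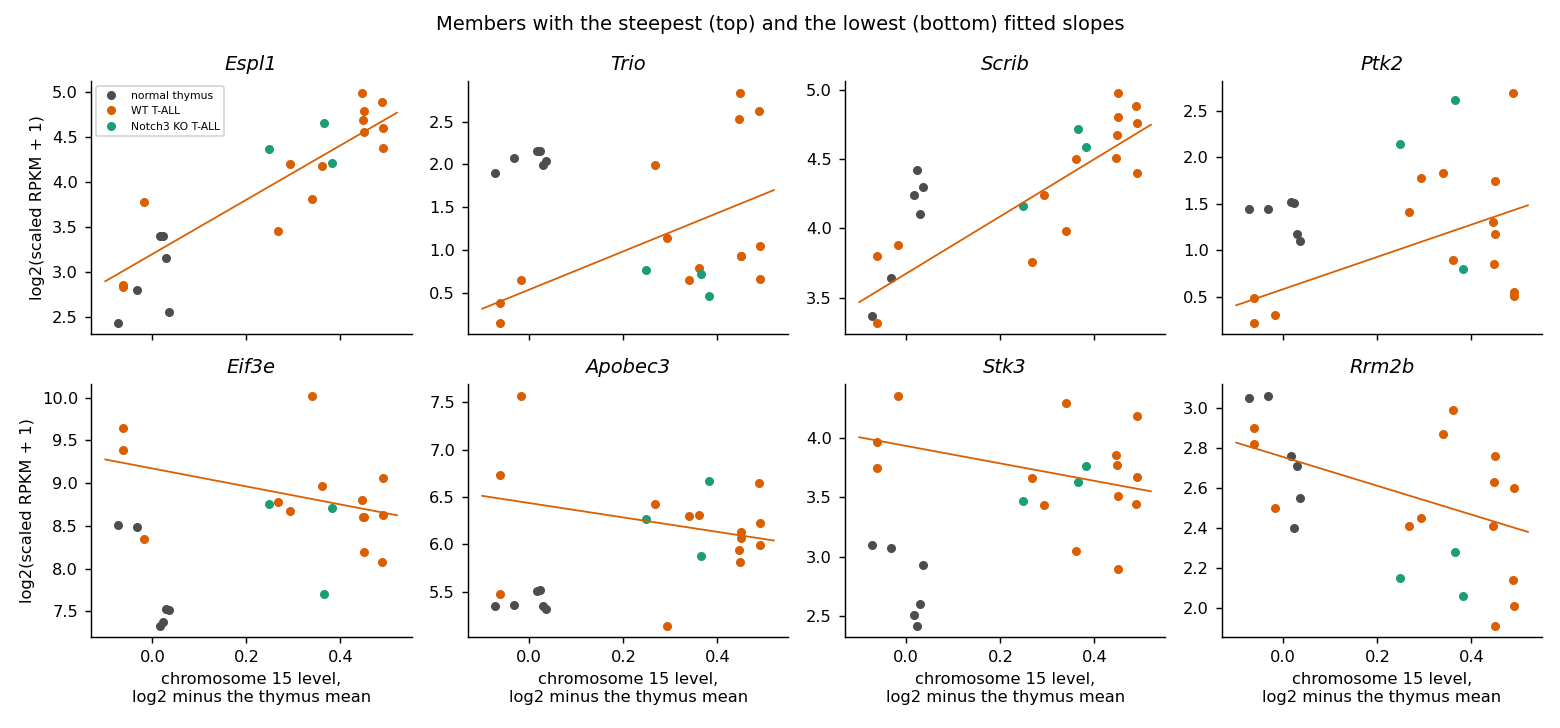
Level of 8 members (log2(scaled RPKM + 1), vertical axes) against the chromosome 15 level of each sample (horizontal axes). The top row holds the 4 steepest slopes over the 14 WT T-ALL and the bottom row the 4 lowest; lines are least-squares lines over WT T-ALL. Espl1 and Scrib climb with the level, while Eif3e, Apobec3, Stk3 and Rrm2b slope downward within their scatter.

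Other measures of the samples also differed between thymus and the tumors, in part with overlap. Proliferation markers (8 genes) had a summed scaled RPKM of 603 to 1079 in thymus. In WT T-ALL the sum was 973 to 2198, and in Notch3 KO T-ALL it was 1417 to 1585. With their score in the fit, 15 members had a positive slope at an unadjusted p under 0.05 (28.8%, other autosomes 5.96%) in place of 21, and 3 a negative one (5.77%, other autosomes 10.4%) in place of 0. Espl1 then had a slope of 2.96 (adjusted p = 0.0197) and Scrib one of 2.08 (adjusted p = 0.0464). Erythroid markers (6 genes) summed to at most 2.43 in thymus, while WT T-ALL had sums of 35.0 to 658 and Notch3 KO T-ALL had sums of 344 to 1822. Neutrophil markers (6 genes) summed to 56.9 to 529, 629 to 84069 and 199 to 7522 in the same order. Megakaryocyte markers (4 genes) summed to 0.60 to 1.27, 2.89 to 98.3 and 37.8 to 97.7, and macrophage markers (6 genes) to 8.97 to 41.1, 14.4 to 207 and 148 to 218. B-cell markers (5 genes) went the other way, with sums of at least 17.4 in thymus and at most 5.80 in the tumors. Among the 11 raised WT T-ALL, the 2 with the lowest chromosome level, T-ALL 110 and 108, had the highest neutrophil sums (84069 and 17239). The rest did not keep this order. T-ALL 126 and 3 had the next highest sums (5596 and 5393) with levels of 0.451 and 0.490, and T-ALL 202 had 2450 with a level of 0.361. The part of these cells in the levels was not tested. In bulk samples, fewer cells of a type and less RNA per cell cannot be told apart. T-lineage markers (8 genes) had sums of 2664 to 3500 in thymus, 1050 to 2575 across WT T-ALL and 1475 to 1558 across Notch3 KO T-ALL. Of the 8, Cd247, Cd4, Cd8a and Lck were below thymus in every tumor, while Cd3d, Cd3e, Cd3g and Ptcra were above every thymus sample in at least 1 WT T-ALL.

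The libraries fell into 2 sets that the labels do not name. Nr2c2ap was 3.48 to 4.63 in a set of 9 libraries and 2.11 to 2.87 in the other 14, and Sco2, a chromosome 15 gene that is no member, was 2.30 to 3.92 and 0 to 1.00. The set of 9 held thymus 5 and 6, WT T-ALL 3, 4, 5 and 7 and all Notch3 KO T-ALL. Within it, the chromosome 15 level was 0.320 higher in WT T-ALL than in thymus (exact permutation test, p = 0.4, adjusted p = 0.691, smallest possible p 0.0667) and 0.299 higher in Notch3 KO T-ALL (exact permutation test, p = 0.1, the smallest possible, adjusted p = 0.422). Within the set of 14 it was 0.313 higher in WT T-ALL (exact permutation test, p = 0.019, adjusted p = 0.0721).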

How the data were processed

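The authors used OSA, the aligner of ArrayStudio, to map reads of KAPA stranded mRNA libraries to mm10 transcripts, and deposited log2 values of RPKM, read from the values as log2(RPKM + 1) with the 75th percentile scaled to 10.0 RPKM in each sample (3.458 to 3.459 on the log2 scale). Whether counting used strand is not given in the sources used here. No counts are in the table, so the depth of each library is unknown and no interval that needs it is given. Per the labels, samples were grouped by tissue and donor thymus genotype. Positions came from RefSeq on GRCm38.p6, matched by gene identifier (24375 genes, 99.6%). A spreadsheet had turned 27 symbols into dates, and these were restored.

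Single genes were compared in limma 3.58.1 under R 4.3.3, using lmFit and eBayes with its trend and robust options, and p-values were adjusted by Benjamini-Hochberg over all genes kept. Both comparisons with thymus used 1 fit of 3 groups, and the T-ALL groups were compared in a fit of their own. Well-expressed genes had a mean scaled RPKM of at least 5. The chromosome level was compared by two-sided exact permutation tests in Python 3.11.15. The scripts were tested on simulated data. Alternatives were an offset of 0.1, other filters, scalings, covariates and subsets of samples. The split into library sets, the GC content and length correction, the proliferation score, the 11 raised tumors alone, the counts without Pvt1 and leaving out each WT T-ALL in turn were chosen after seeing the data. Genes were named by rule: the 2 highest and 2 lowest changes of WT T-ALL in each role group, the 4 steepest and 4 lowest slopes, the members called between T-ALL groups, the first and last along the chromosome, and Myc. The members and lists were chosen with earlier results of these data known.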

Additional observations from a re-analysis of the deposited data

Results flagged for a closer look

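In 55 values examined over the 6 thymus samples (the members, Myc, the chromosome 15 level and the mean of the members), 2 had a sample that stood apart from the rest, where chance gives about 1 in 20. Both were in thymus 6. Tuba1b was 8.16 there and 8.90 to 9.15 in the other 5. Azin1, an inhibitor of antizyme in polyamine control, was 4.93 there and 5.24 to 5.40 in the others. Groups of 3 and of 14 were not examined in this way.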

How the results depend on the processing

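The chromosome 15 level kept its direction against thymus under every alternative run. With p-values adjusted over the 19 autosomes, as reported, it did not pass the threshold over all genes kept by the filter (0.2407 in WT T-ALL and 0.2664 in Notch3 KO T-ALL), within the set of 9 libraries (0.320 and 0.299), within the set of 14 (0.313) or with a Notch3 KO T-ALL left out. Left-out Notch3 KO T-ALL gave 0.307 to 0.374 against thymus and -0.0061 to 0.061 against WT T-ALL; that last difference was also reversed after GC content and length correction (-0.0085) and within the set of 9 (-0.0207).

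Of the 34 members called in WT T-ALL, the count was 2 with the erythroid score as a covariate and 9 within the set of 9 libraries. Of the 27 in Notch3 KO T-ALL it was 0 (4 at an unadjusted p under 0.05 in limma) and 14. The erythroid score does not overlap between thymus and tumors, so its effect and that of the group cannot be told apart. Left-out Notch3 KO T-ALL gave 15 (without T-ALL 1) to 25 against thymus, 34 in WT T-ALL and 0 between T-ALL groups. Quantile normalization moved the median change of all genes from 0.077 to -0.049 in Notch3 KO T-ALL and that of the members from 0.484 to 0.323, with 20 called. GC content and length correction and scaling to the other autosomes each gave 22 (42.3%, all genes 38.8% and 37.6%). Under the erythroid covariate the sign turned for Asap1 (-0.131 and -0.037), Trappc9 (-0.14 and -0.39) and Senp1 (0.012) and, in Notch3 KO T-ALL, for Ago2 (-0.72), Eif3e (-0.041), Ptk2 (-0.52) and Smarcd1 (0.43). GC content and length correction turned Ago2 (0.31) and Senp1 (0.045) in WT T-ALL, Utp23 (-0.071) in Notch3 KO T-ALL and the slope of Stk3 (0.085). Within the set of 9, Ago2 (0.53), Ptk2 (0.19), Senp1 (0.11) and Utp23 (0.15) turned in WT T-ALL. Utp23 turned in Notch3 KO T-ALL relative to the other autosomes (-0.058). With Notch3 KO T-ALL left out in turn, Utp23 ran from -0.023 to 0.157 and Ago2 from -0.136 to 0.547. The cause was not tested.

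For the slopes, 2 members were called (Espl1 and Scrib; relative to the other autosomes Espl1 and Puf60; with GC content and length correction Espl1 and Rbx1; 3 with all T-ALL samples), 0 without the 2 farthest tumors and 0 among the 11 raised tumors, where Apobec3 (1.05), Ptk2 (-1.64) and Stk3 (0.18) changed sign. Leaving out each WT T-ALL gave 0 to 3 called, with 0 without T-ALL 36 and 0 without T-ALL 48, and a slope of Apobec3 from -1.75 to 0.134. Espl1 had an adjusted p of 0.0569 and 0.133 without these and Scrib one from 0.0297 to 0.495 over the 14.

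The groups share replicate numbers, but nothing says that a number marks a shared animal or day. Deviations of same-numbered samples correlated at -0.235, 0.094 and 0.131 (thymus and WT T-ALL) and 0.036, -0.028 and 0.151 (thymus and Notch3 KO T-ALL). The pair of WT and Notch3 KO T-ALL had 0.125. Differently numbered pairs were not compared, so these values cannot show whether a number marks a shared animal or day. With the replicate block, on the 3 shared numbers, 14 members were called in WT T-ALL (26.9%, all genes 18.4%) and 20 in Notch3 KO T-ALL (38.5%, all genes 33.5%), from fewer samples. Under the block Ago2 (0.037), Senp1 (0.075) and Utp23 (0.064) turned in WT T-ALL, and Smarcd1 (0.161) and Utp23 (-0.066) in Notch3 KO T-ALL. WT and Notch3 KO T-ALL share 1 number, so no paired fit could be made there.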
